A study of Homo sapiens with 14 samples.

Results

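Small nucleolar RNAs (snoRNAs) and small Cajal body RNAs (scaRNAs) are short noncoding RNAs that guide chemical changes on other RNAs. The members described here were every row of the count tables whose symbol began with SNORA, SNORD or SCARNA followed by a digit, which gave 392 of 23106 genes. Of these, 106 were H/ACA snoRNAs (SNORA), 262 were C/D snoRNAs (SNORD) and 24 were scaRNAs (SCARNA). Polyadenylated RNA was measured in a pair of established cancer cell lines, PC3 from a prostate carcinoma and HCT116 from a colorectal carcinoma. Each line was kept in normoxia (21% O2) or in hypoxia (0.5% O2) for 16 h, with 4 libraries per condition for PC3 and 3 for HCT116. Neither line carried an introduced allele or received any other agent in these 14 libraries.

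H/ACA snoRNAs fold into hairpins and guide the conversion of uridine to pseudouridine, in a complex with dyskerin (DKC1), NHP2, NOP10 and GAR1. C/D snoRNAs guide 2′-O-methylation, in a complex with fibrillarin (FBL), NOP56, NOP58 and the protein that the files name NHP2L1. Most of both kinds act on ribosomal RNA in the nucleolus, while scaRNAs act on spliceosomal small nuclear RNAs in Cajal bodies. In human cells most of them are cut out of introns of host genes, many of which encode ribosomal proteins or translation factors, and the finished RNA has no poly(A) tail. The libraries were made from RNA selected for poly(A) tails, so the values below are what that selection left of these RNAs and not their abundance in the cell. Reads were counted by the authors only where all of their bases lay within a gene, on RefSeq genes of GRCh37.

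The total count per library was between 71228454 and 123935458 in PC3 and between 133067391 and 150630928 in HCT116. In PC3 the 4 hypoxic libraries were the shallowest, at 71228454 to 96159803 counts against 98021966 to 123935458 in normoxia. The PC3 libraries numbered 1 stood apart: their deviations from the group means over 14309 genes correlated with each other at r = 0.675 and with those of the remaining PC3 libraries of the opposite condition at -0.139 to -0.420. The lines carried the marks of their labels in part. VIM was at 549 CPM (counts scaled to library size with TMM factors) in normoxic PC3 and 6.78 CPM in normoxic HCT116, while CDX2, an intestinal transcription factor, was at 0 in PC3 and at 17.6 CPM in HCT116. EPCAM, an epithelial marker, stood at 402 and 315 CPM. Against the labels, the listed PC3 marker CAV1 was at similar levels (654 and 639 CPM) and the listed HCT116 marker LGR5 was at 0.137 CPM in PC3 and 0.0072 CPM in HCT116. The intestinal genes CDX1 (0 in both lines), VIL1 and CDH17 (under 0.03 CPM in HCT116) and the prostate gene KLK3 (0 in both lines) were near or at 0. All 8 listed hypoxia control genes, among them NDRG1, BNIP3 and VEGFA, rose in both lines in the quasi-likelihood test of edgeR. In that test p was adjusted after Benjamini and Hochberg over all genes tested. The median log2 fold change of the 8 genes was 1.69 in PC3 and 2.89 in HCT116. Their list was drawn up with earlier results of these data known.

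The members differed in length and in the short motifs that define the classes, and both bear on the counts below. On GRCh37, 328 of the 392 members could be placed at a single annotated locus of GENCODE v44lift37 by symbol. The median annotated length was 82 bases for 220 placed C/D snoRNAs (64 to 237), 134 bases for 90 H/ACA snoRNAs (121 to 701) and 141 bases for 18 scaRNAs (125 to 353). The following sequences are the most abundant member of each class on average over the libraries (SNORA40, SNORD17, SCARNA12), H/ACA snoRNAs that fell in hypoxia (SNORA62, SNORA4, SNORA81) and C/D snoRNAs that were counted in PC3 and hardly or not at all in HCT116 (SNORD88B, SNORD16). Capitals mark TGATG (the core of box C) where it starts and ends within the first 20 bases, CTGA (box D) within the last 20 bases, and ACA within the last 10 bases, the last shown for H/ACA snoRNAs only. In SCARNA12 the final A of CTGA is also the first A of an ACA at the end of the sequence.
SNORA40: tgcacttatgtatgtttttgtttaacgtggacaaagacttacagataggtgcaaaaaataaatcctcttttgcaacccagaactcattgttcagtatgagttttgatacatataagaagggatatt
SNORA62: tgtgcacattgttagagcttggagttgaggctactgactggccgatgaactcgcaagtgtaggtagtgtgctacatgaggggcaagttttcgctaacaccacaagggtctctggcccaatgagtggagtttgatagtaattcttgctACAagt
SNORA4: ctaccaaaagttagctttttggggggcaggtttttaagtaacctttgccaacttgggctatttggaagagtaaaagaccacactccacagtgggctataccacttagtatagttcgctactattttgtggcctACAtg
SNORA81: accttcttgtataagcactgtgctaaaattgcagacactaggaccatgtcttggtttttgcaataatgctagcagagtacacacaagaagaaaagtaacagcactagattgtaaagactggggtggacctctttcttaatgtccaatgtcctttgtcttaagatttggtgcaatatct
SNORD17: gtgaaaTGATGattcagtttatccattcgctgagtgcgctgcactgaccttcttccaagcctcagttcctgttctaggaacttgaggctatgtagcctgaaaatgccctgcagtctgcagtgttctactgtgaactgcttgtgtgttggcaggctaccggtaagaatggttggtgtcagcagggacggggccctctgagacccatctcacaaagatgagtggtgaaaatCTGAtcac
SNORD88B: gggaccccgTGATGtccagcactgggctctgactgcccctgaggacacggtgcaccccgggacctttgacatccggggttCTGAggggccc
SNORD16: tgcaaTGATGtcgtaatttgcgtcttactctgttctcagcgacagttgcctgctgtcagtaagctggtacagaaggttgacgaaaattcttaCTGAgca
SCARNA12: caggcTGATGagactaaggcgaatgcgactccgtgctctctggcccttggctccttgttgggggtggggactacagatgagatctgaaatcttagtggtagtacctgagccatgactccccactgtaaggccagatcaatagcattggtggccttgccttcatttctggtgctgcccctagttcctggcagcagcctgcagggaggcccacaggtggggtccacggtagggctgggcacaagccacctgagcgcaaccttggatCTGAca

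These sequences run 5′ to 3′ along the strand of the gene. On GRCh37, SNORA40 lies at chr11:93468277-93468402 on the minus strand within TAF1D, which encodes a subunit of an RNA polymerase I initiation factor. SNORA62 lies at chr3:39452545-39452697 on the plus strand within RPSA, a ribosomal protein gene. SNORA81 (chr3:186504464-186504641) and SNORA4 (chr3:186505401-186505538) lie on the plus strand within EIF4A2, which encodes a translation initiation helicase. SNORD17 lies at chr20:17943353-17943589 on the minus strand in an intron of OVOL2 and also within SNX5. SNORD88B (chr19:51302289-51302379, minus strand) lies in C19orf48, SNORD16 (chr15:66795150-66795248, minus strand) in RPL4, and SCARNA12 (chr12:7076500-7076769, minus strand) in PHB2. Apart from that of SNORD17, each of these loci overlaps an exon of at least 1 annotated transcript of its host, so that reads of host RNA at the locus cannot be told apart from reads of the small RNA. Whether counting used strand, and which RefSeq release it used, are not given in the sources used here, so that for any member within a host, reads of unspliced host RNA cannot be told apart from the small RNA either.

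The motifs followed the symbols. TGATG within the first 20 bases and CTGA within the last 20 were both present in 192 of 220 placed C/D snoRNAs (87.3%), 0 of 90 H/ACA snoRNAs and 4 of 18 scaRNAs, against 59.8% of all 328 placed members. ACA within the last 10 bases was present in 81 of 90 H/ACA snoRNAs (90%), 11 of 220 C/D snoRNAs (5%) and 13 of 18 scaRNAs (72.2%), against 32% of all placed members. All searches were made on the strand of the gene, and the windows depend on where the annotation ends a gene, as in SNORA40 and SNORA81, whose last 10 bases hold no ACA.

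Most members were not counted at all. In 220 of the 392 members all 14 libraries were at 0, a further 172 had at least 1 count somewhere, 117 had more than 3 counts in at least 1 library, and 22 had more than 3 counts in every library. A count of 0 in a library allows up to 3 counts, or 0.0201 to 0.0447 TMM-scaled CPM at these depths, and covers counting error only. By class, 198 of 262 C/D snoRNAs, 20 of 106 H/ACA snoRNAs and 2 of 24 scaRNAs were at 0 throughout. The C/D snoRNAs were thus the largest class by number and had the largest share without a count. Members as a whole took 1003 to 2754 counts of a PC3 library and 1253 to 1806 counts of an HCT116 library.

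Many of the uncounted C/D snoRNAs belonged to imprinted clusters of tandem copies. In the cluster near MEG3, 38 SNORD113 and SNORD114 genes were all at 0, as were the 47 SNORD115 genes of the cluster near SNRPN. These and the SNORD116 genes made up 103 of the 198 C/D snoRNAs without a count. The 29 SNORD116 copies, whose deletion is linked to Prader-Willi syndrome, were counted in PC3 only, where 11 copies had at least 1 count and held 21 to 56 counts per library (274 in all 8 libraries). In HCT116 the SNORD116 copies had 0 counts in all 6 libraries. Because the copies are closely related, how reads were divided among them is uncertain. Among genes of the same locus, looked up after these values were seen, the noncoding transcript IPW was at 15.8 ± 1.69 CPM (SD, n = 4) in normoxic PC3 and 0 in all HCT116 libraries. SNURF was at 0.247 ± 0.0722 CPM in normoxic PC3 and at 0 in 5 of the 6 HCT116 libraries, whereas the neighbouring UBE3A was at 191 ± 5.91 and 162 ± 3.16 CPM (n = 4 and 3).

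Length separated members with and without counts, and more sharply in HCT116. Of 67 placed members under 75 bases, 5 had any count in PC3 (93 counts over 8 libraries) and 1 in HCT116 (2 counts over 6 libraries). Of 136 members of 75 to 99 bases, 35 had counts in PC3 (835 counts) and 6 in HCT116 (28 counts). Of 105 members of 100 to 149 bases, 83 had counts in PC3 and 80 in HCT116, with 7349 and 4769 counts. All placed members under 100 bases were C/D snoRNAs, so class and length could be told apart only above that length, where 13 of 17 C/D snoRNAs in PC3 and 11 of 17 in HCT116 had counts. Per library, the 203 members under 100 bases held 59 to 188 counts in PC3 and 0 to 12 in HCT116, with no overlap between the lines, while the 125 longer members held 798 to 2059 and 966 to 1416.

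**Figure D1:**
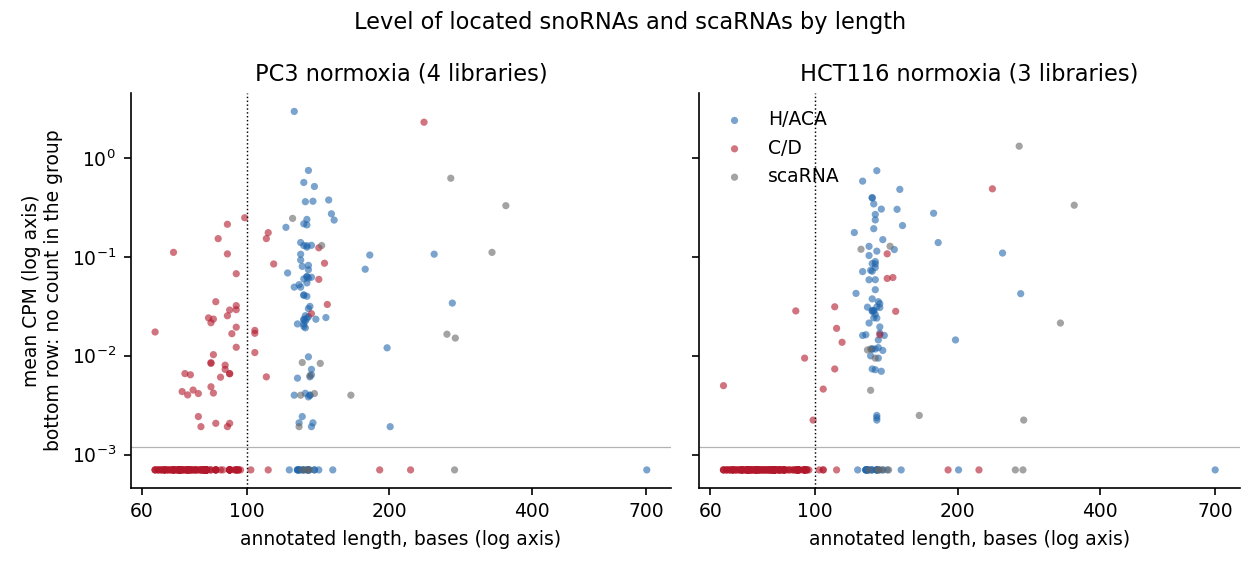
Mean CPM in normoxia (log axis) of the 328 placed members against annotated length in bases (log axis), for PC3 (4 libraries) and HCT116 (3 libraries). The bottom row holds members without a count in the group, the dotted line marks 100 bases, and to its left PC3 has a scatter of C/D snoRNAs (35 of 136 members of 75 to 99 bases had counts in PC3) where HCT116 has almost none.

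Of the 40 placed members under 100 bases with counts in PC3, 13 had more than 3 counts in at least 1 PC3 library. Among them, SNORD88B had 24, 28, 22 and 27 counts in the normoxic PC3 libraries and 0 in all normoxic HCT116 libraries, which puts it at least 30.2-fold lower in HCT116 when the floor of 3 counts is taken over the group. SNORD76, a C/D snoRNA that was not placed and so has no length here, and whose host is the noncoding gene GAS5, had 15, 30, 25 and 29 counts against 0, at least 29.6-fold lower. Reads were thus counted at both loci in every normoxic PC3 library and in no normoxic HCT116 library, where a count of 0 allows up to 3. In HCT116 hypoxia 3, SNORD88B had 4 counts and SNORD88C had 3, against 0 for both in all other HCT116 libraries. SNORD88A, SNORD88B and SNORD88C share 90.1% to 92.3% of their 91 bases, so that reads may be split among them. SNORD16, a guide for small-subunit ribosomal RNA, had 13, 34, 25 and 46 counts against 1, 0 and 0. The study's methods name more than a single sequencer and read length for its RNA libraries. Whether these 14 libraries shared them, and which library had which, is not given in the sources used here. Cell line and sequencing run therefore cannot be told apart, and the part of read length in this difference was not tested.

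Among members measured in normoxia, the lines differed in both directions for H/ACA snoRNAs and scaRNAs and in 1 direction for C/D snoRNAs. Of 60 members tested in HCT116 against PC3, 9 were higher and 19 lower in HCT116 by edgeR's quasi-likelihood test (adjusted p under 0.05), where 40.5% of all genes tested were higher and 42.9% lower. Without overlap of the groups, 11 members (18.3%) were higher and 19 (31.7%) lower, against 40.6% and 42.5% of all genes. For C/D snoRNAs the counts were 0 higher and 9 lower of 12 tested, for H/ACA snoRNAs 7 and 8 of 40, and for scaRNAs 2 and 2 of 8. A low-count filter removed the other 332 members, and a member at or near 0 in 1 line passed it only through the line where it was high, so these counts do not describe the classes as a whole. They also depended on the filter and the tool, at 3 higher and 5 lower with at least 10 counts required in every library, and at 31 lower in DESeq2 and 38 lower without a filter.

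SNORA40, the most abundant member in PC3, was at 1.96, 3.34, 2.61 and 3.88 CPM in normoxic PC3 and at 0.536, 0.702 and 0.508 CPM in normoxic HCT116. The groups did not overlap, and its log2 difference was -2.32 (SE 0.26, edgeR adjusted p = 1.7e-05). SNORD17, which guides methylation of large-subunit ribosomal RNA, was at 1.68, 2.37, 2.32 and 2.82 CPM in PC3 and 0.449, 0.510 and 0.500 CPM in HCT116, a log2 difference of -2.21 (SE 0.21, adjusted p = 4.55e-06). Neither is short, at 126 and 237 bases. SNORA8, a neighbour of SNORA40 in TAF1D, was also lower (log2 difference -1.76, SE 0.23, adjusted p = 5.79e-05). TAF1D itself had a log2 difference of 0.12 (SE 0.07) that did not pass (edgeR adjusted p = 0.126). Of the 6 TAF1D members tested, SNORA40, SNORA8 and SNORA1 passed and SNORA18, SNORA25 and SNORA32 did not, with log2 differences of -0.49, -0.72 and -0.16. SNORA1 had 9, 14, 10 and 11 counts in normoxic PC3 and 2, 4 and 3 in normoxic HCT116. It passed the low-count filter only through PC3, so its call is not independent of that filter.

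In the other direction, SCARNA2, a guide for U2 small nuclear RNA, had 0, 2, 1 and 0 counts in normoxic PC3 and 17, 24 and 12 in normoxic HCT116. It was at or under the floor in every normoxic PC3 library, and the ratio of the summed counts per library size was 19.7 (exact 95% interval 6.39 to 98.7, which covers counting error only). SNORA84, within IARS, had 3, 1, 5 and 1 counts against 44, 24 and 15 (log2 difference 3.14, SE 0.61), and like SCARNA2 it was low enough in PC3 to pass the low-count filter only through HCT116. SCARNA12, the most abundant scaRNA, was at 0.369 to 0.835 CPM in PC3 and 1.09 to 1.52 CPM in HCT116 (log2 difference 1.09, SE 0.28, adjusted p = 0.00451). In these 3 the groups did not overlap. The remaining members that were higher in HCT116 were SNORA12 (log2 difference 2.21), SNORA52 (2.11), SNORA81 (1.87), SNORA3 (1.39), SNORA63 (0.89) and SNORA6 (0.83). Normoxic PC3 counts were 1, 6, 1 and 4 for SNORA12 and 7, 11, 6 and 2 for SNORA52. For SNORA81 they were 7, 13, 6 and 10, and for SNORA3 4, 8, 8 and 3. SNORA12, SNORA52, SNORA81 and SNORA3 thus also passed the low-count filter only through HCT116, so these calls are not independent of that filter. Of the 3 EIF4A2 members, SNORA81 and SNORA63 were higher in HCT116. SNORA4 had a log2 difference of -0.24 (SE 0.24, edgeR adjusted p = 0.354) and EIF4A2 itself 0.11 (SE 0.10, adjusted p = 0.315). Whether the members differed from each other was not tested.

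The hosts of these members were compared between the lines in the same fit, in which 40.5% of all genes tested were higher and 42.9% lower in HCT116. Of the 38 tested hosts of tested members, 26 were higher and 9 lower in HCT116. SNORD88B and SNORD76 were at 0 in normoxic HCT116 although C19orf48 (log2 difference 0.66) and GAS5 (1.54) were higher there. RPL4, the host of SNORD16, was also higher in HCT116 (1.32, SE 0.08, adjusted p = 3.1e-07). Of the 15 tested hosts of members that were lower in HCT116, 8 were higher and 5 lower there, so that the share not lower was near that of all genes. Of the 7 tested hosts of members that were higher in HCT116, 5 were higher, among them PHB2, the host of SCARNA12, and IARS (1.45), the host of SNORA84, and CWF19L1, the host of SNORA12, was lower (-0.57). The lower hosts of lower members included OVOL2 (-4.08), and SNX5, which also contains SNORD17, was lower as well (-0.40, SE 0.07, adjusted p = 0.000411).

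Turning to hypoxia, the summed level of the H/ACA snoRNAs was lower in both lines. The PC3 mean was 11.8 CPM (SD 1.82, 4 libraries) without and 8.59 CPM (SD 0.841) with hypoxia, a ratio of 0.729. In HCT116 the means were 8.998 CPM (SD 0.506, 3 libraries) and 6.93 CPM (SD 0.564), a ratio of 0.770. In neither line did the groups overlap, the lowest normoxic value being 9.44 CPM in PC3 and 8.54 CPM in HCT116 and the highest hypoxic value 9.13 and 7.55 CPM. Without SNORA40, the most abundant member, the PC3 means were 8.84 and 6.20 CPM.

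For C/D snoRNAs the sum was 5.64 ± 0.887 and 4.37 ± 0.864 CPM in PC3, where the groups overlapped but the sum was lower in hypoxia in all 4 pairs of same-numbered libraries, and 1.44 ± 0.120 and 1.08 ± 0.0694 CPM in HCT116, where they did not. SNORD17 alone made up 40.7% of the normoxic PC3 sum. For scaRNAs the sums overlapped between conditions in both lines, at 1.86 ± 0.449 and 1.60 ± 0.200 CPM in PC3 and 2.27 ± 0.219 and 1.89 ± 0.397 CPM in HCT116, and the sum was lower in hypoxia in 3 of the 4 PC3 pairs. The C/D sums thus differed more between the lines than between oxygen levels. As sums over members these values have no test, and fewer copies per cell cannot be told apart from a smaller polyadenylated share.

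**Figure D2:**
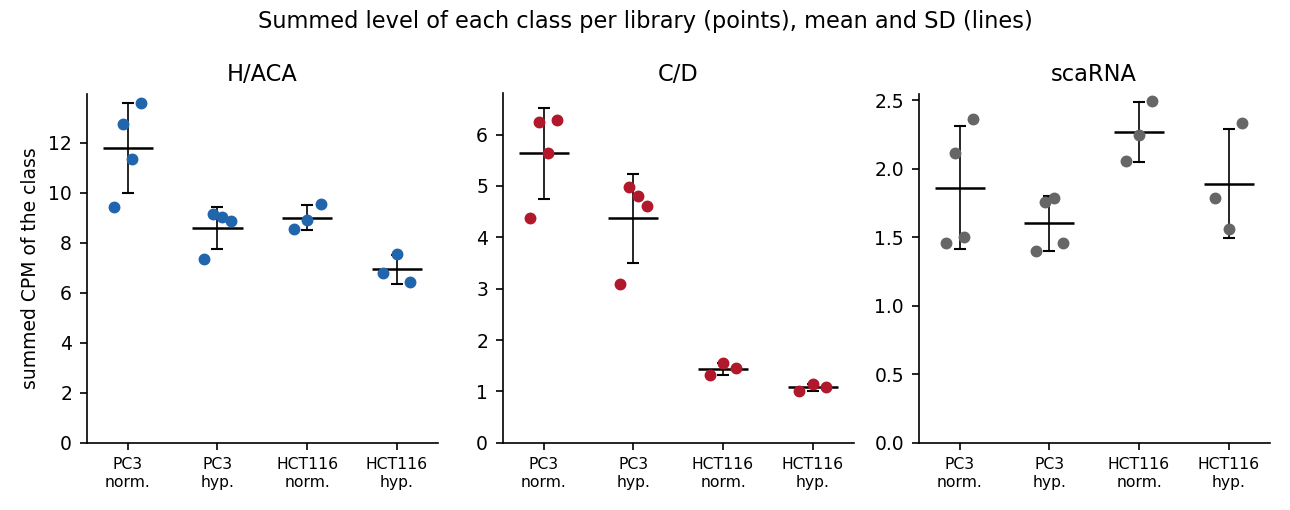
Summed TMM-scaled CPM of the H/ACA, C/D and scaRNA classes in each library (points), with the mean and SD of each group (lines), in normoxia (norm.) and hypoxia (hyp.). H/ACA sums in hypoxia (at most 9.13 CPM in PC3 and 7.55 in HCT116) lie below those in normoxia in both lines, and the C/D sums of HCT116 lie below every PC3 library.

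The number of members with more than 3 counts in every library of a group went from 58 to 37 in PC3 and stayed at 47 in HCT116. In PC3 the H/ACA snoRNAs went from 38 to 23, the C/D snoRNAs from 14 to 10 and the scaRNAs from 6 to 4. Without PC3 hypoxia 4, the shallowest library, the hypoxic number of scaRNAs was 7, above the 6 in normoxia, so that no direction is given for that class. In HCT116 the numbers were 38 and 37, 3 and 5, and 6 and 5. As the hypoxic PC3 libraries were shallower, all libraries were also thinned to the smallest total, and the expected number of H/ACA snoRNAs was then 30.4 and 21.6 in PC3 and 30.3 and 23.1 in HCT116. For PC3 the thinned numbers were 11.3 and 8.90 C/D snoRNAs and 4.94 and 4.00 scaRNAs. For HCT116 they were 2.84 and 2.55 C/D snoRNAs, the other way round from the numbers before thinning, and 5.30 and 3.37 scaRNAs, and the total of 47 in each condition became 38.4 and 29.1. At equal total counts, though not at equal TMM-scaled library size, the number in hypoxia was thus lower in both lines for H/ACA snoRNAs, and the gap in PC3 was smaller than before thinning in all 3 classes.

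Few single members passed the test for hypoxia, and all of those were lower. In PC3, 0 of 42 tested members were higher and 3 were lower, SNORA24, SNORD22 and SNORA62, where 6.03% of all genes tested were higher and 5.29% lower. With the replicate number as a block, which pairs the PC3 libraries, SNORA70 passed as well and 4 members were lower. In HCT116, 0 of 40 were higher and 4 were lower, SNORA4, SNORA81, SCARNA9 and SNORD22, against 14.6% higher and 11.3% lower among all genes. The shares that passed, 7.14% and 10%, were near the shares of lower genes overall. Whether past the threshold or not, 33 of 42 members in PC3 and 33 of 40 in HCT116 had a log2 fold change below 0, with medians of -0.36 and -0.46 against 0.00 for all genes in either line. Scaling by total counts in place of TMM would lower every log2 fold change by about 0.10 in PC3 and 0.08 in HCT116, a shift of -0.10 and -0.08, and no member rose under either scaling. With that scaling 5 members were lower in PC3 and 7 in HCT116, where 12.1% and 22.3% of all genes tested were lower. Of the members tested, 13 in PC3 and 8 in HCT116 had a mean under 10 counts in hypoxia, against 1 and 0 in normoxia. Members that passed the low-count filter only through normoxia had to be lower in hypoxia, so these counts and medians describe the tested members and support no direction for the members as a whole.

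**Figure D3:**
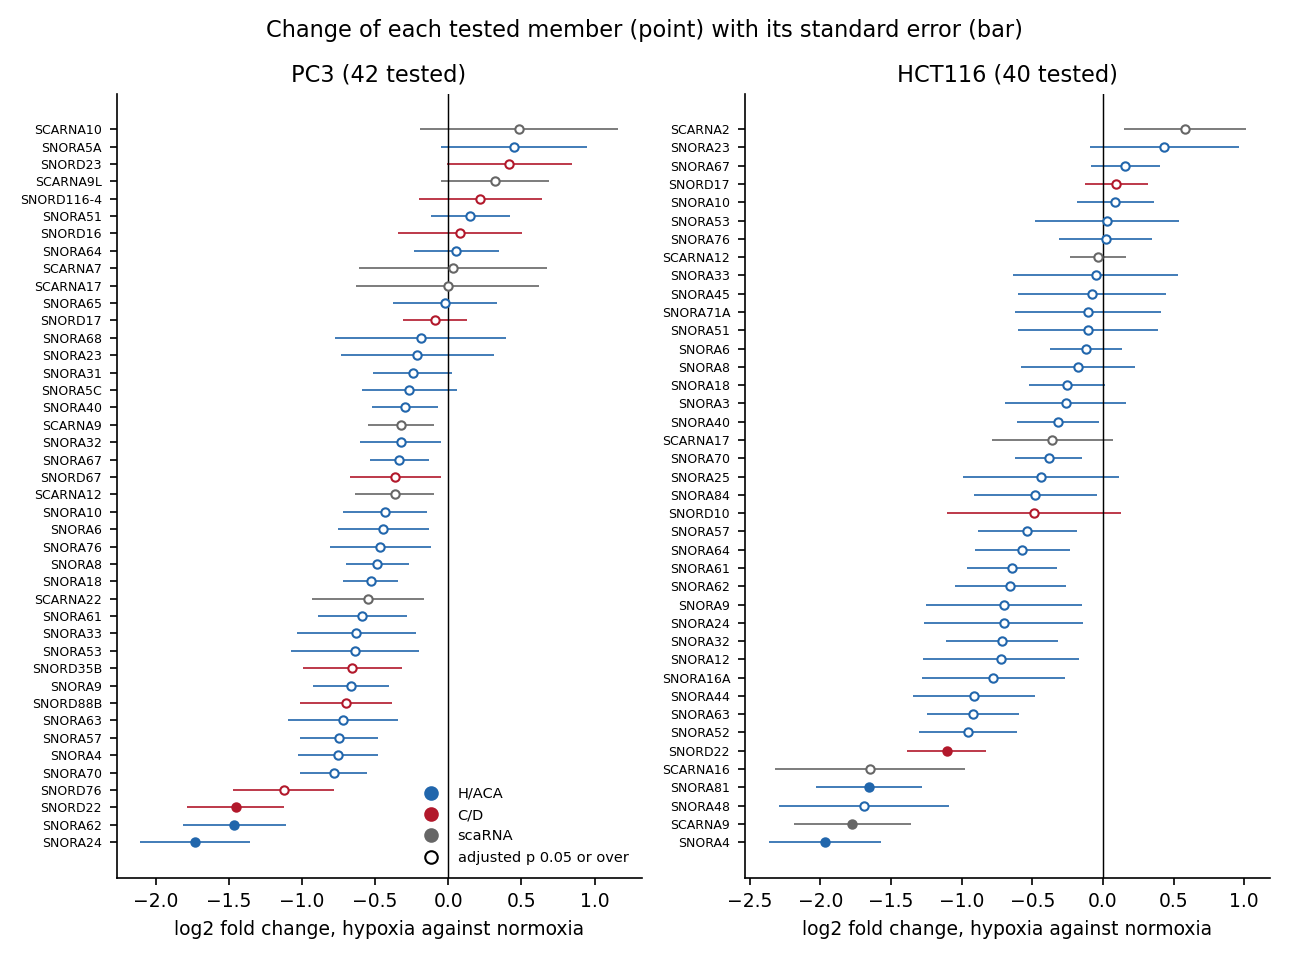
Log2 fold change in hypoxia against normoxia (x axis) of each tested member, with its standard error as a bar, for 42 members in PC3 and 40 in HCT116. Filled points passed the threshold of 0.05 on the adjusted p, all of them below 0, and 33 members in each line lie below 0.

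The same limit holds for the number of members whose libraries were separated by condition. In PC3, 13 of the 42 members (31.0%) were lower in all 4 hypoxic libraries than in any normoxic library and 0 were higher, where 11.1% of all genes tested were lower and 10.1% higher in this way. In HCT116 it was 14 of 40 members (35.0%) lower and 0 higher, against 20.2% and 22.6% of all genes. Of 26 members tested in both lines, 18 were below 0 in both and 0 were above 0 in both, where 33.0% and 33.5% of 13090 genes tested in both lines were so. The 5 that were lower without overlap in both lines were SNORA4, SNORA62, SNORA63, SNORA70 and SNORD22, where 5.25% of those genes were lower and 5.72% higher in this way.

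SNORD22 was the only member to pass in both lines. Its host SNHG1 is a noncoding gene whose introns hold a series of C/D snoRNAs. In PC3 it was at 0.578, 0.981, 0.824 and 0.704 CPM in normoxia and at 0.164, 0.298, 0.455 and 0.194 CPM in hypoxia. This gave a log2 fold change of -1.45 (SE 0.33, edgeR adjusted p = 0.0226). In HCT116 it was at 0.469, 0.546 and 0.657 CPM and at 0.231, 0.223 and 0.315 CPM, a log2 fold change of -1.11 (SE 0.28, adjusted p = 0.0141). Every hypoxic library was below every normoxic one in both lines. SNHG1 fell as well, by 0.55 on the log2 scale in PC3 (SE 0.13, adjusted p = 0.0253) and by 0.62 in HCT116 (SE 0.09, adjusted p = 0.000778).

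In PC3, SNORA24, a guide for small-subunit ribosomal RNA placed by RefSeq neighbours in SNHG8, had 14, 23, 21 and 14 counts in normoxia and 5, 3, 4 and 3 under low oxygen (log2 fold change -1.73, SE 0.38, adjusted p = 0.0185), and hypoxic counts were near the floor. SNORA62 had 23, 31, 21 and 37 counts and 8, 3, 9 and 8 counts (log2 fold change -1.46, SE 0.35, adjusted p = 0.0287). The groups did not overlap for either. Both were low enough in hypoxia to pass the low-count filter only through normoxia, so these calls are not independent of that filter. RPSA, the host of SNORA62, had a log2 fold change of 0.22 in PC3 (SE 0.23, adjusted p = 0.585), and SNHG8 fell by 0.29 (SE 0.07, adjusted p = 0.0264). All 3 PC3 calls were lost when normoxia 2, normoxia 3 or hypoxia 2 was left out, with edgeR adjusted p of 0.0621 to 0.0846, and that of SNORA62 also without hypoxia 1, hypoxia 3 or normoxia 4. Their log2 fold changes stayed between -1.85 and -1.23 over single libraries left out. Without both PC3 libraries numbered 1, chosen after seeing the data, 3 members were lower, and SNORA62 was not among them (edgeR adjusted p = 0.0514).

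In HCT116, SNORA4 had 39, 40 and 49 counts in normoxia and 7, 13 and 11 under low oxygen (log2 fold change -1.97, SE 0.40, adjusted p = 0.00478). SNORA81, from the same host EIF4A2, had 40, 44 and 33 counts against 13, 9 and 13 (-1.66, SE 0.38, adjusted p = 0.00826). The third EIF4A2 member, SNORA63, had 54, 42 and 70 counts against 28, 30 and 26, with a log2 fold change of -0.92 (SE 0.32) that did not pass (adjusted p = 0.0576). All 3 were lower in hypoxia without overlap, whereas EIF4A2 itself had a log2 fold change of -0.16 (SE 0.15, adjusted p = 0.454). SCARNA9, which guides methylation of U2 small nuclear RNA and lies in KIAA1731, had 49, 49 and 43 counts against 19, 6 and 14 (-1.77, SE 0.41, adjusted p = 0.00936). KIAA1731 had a log2 fold change of -0.11 (adjusted p = 0.331). SNORA4, SNORA81 and SCARNA9 were low enough in hypoxia to pass the low-count filter only through normoxia. Their calls are therefore not independent of that filter. The 4 HCT116 calls passed under all alternatives that gave them a value, with a highest edgeR or DESeq2 adjusted p of 0.0493. With at least 10 counts required in every library, only SNORD22 of these 4 had a value.

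**Figure D4:**
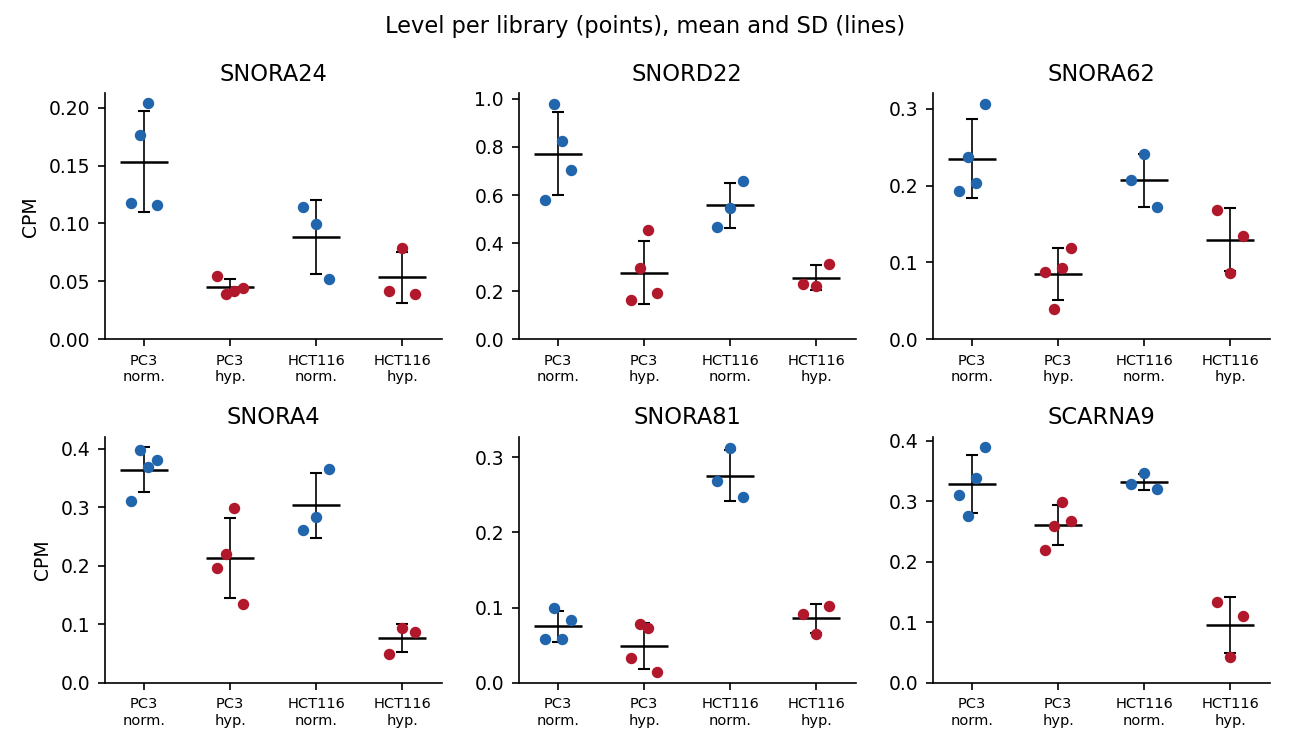
TMM-scaled CPM of the 6 members that passed the threshold in hypoxia in at least 1 line, per library (points) with group mean and SD (lines), blue for normoxia (norm.) and red for hypoxia (hyp.). SNORD22 is separated by condition in both lines, SNORA24 in PC3 only, and SNORA81 and SCARNA9 in HCT116 only.

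Whether these changes differed between the lines was tested directly. Of 62 members, 0 passed the interaction of line and oxygen in edgeR, where 1.31% of all genes were higher and 1.01% lower, with 6 members at an unadjusted p under 0.05 and 1 past the threshold in DESeq2. Among the 6 members that passed in hypoxia in at least 1 line, the largest difference was that of SCARNA9 (log2 difference of changes, HCT116 minus PC3, -1.46, SE 0.45, edgeR adjusted p = 0.108), the member that DESeq2 called (DESeq2 adjusted p = 0.0376). SNORA4 followed at -1.22 (SE 0.45, adjusted p = 0.181), SNORA81 at -1.11 (SE 0.61, adjusted p = 0.402), SNORA24 at 1.02 (SE 0.63, adjusted p = 0.466), SNORA62 at 0.80 (SE 0.52, adjusted p = 0.50) and SNORD22 at 0.34 (SE 0.45, adjusted p = 0.791). A call in 1 line is therefore not shown to be particular to that line.

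Among the abundant members that did not pass, SNORA70, within RPL10, came closest in PC3. It was at 0.713, 0.789, 0.747 and 0.737 CPM in normoxia and at 0.317, 0.530, 0.548 and 0.328 CPM in hypoxia. The groups did not overlap, with a log2 fold change of -0.78 (SE 0.23, adjusted p = 0.0548). It was past the threshold in 6 alternatives, with an adjusted p of 0.0156 in DESeq2 and of 0.0285 with the replicate number as a block, while in HCT116 its log2 fold change was -0.39 (adjusted p = 0.261). SNORA40 had log2 fold changes of -0.29 in PC3 and -0.32 in HCT116 (adjusted p = 0.436 and 0.446), and SNORD17 of -0.09 and 0.10 (adjusted p = 0.823 and 0.787). SNORA40 and SNORD17, the leading H/ACA and C/D snoRNAs in PC3, thus had overlapping levels in normoxia and hypoxia in both lines, although within the PC3 pairs SNORA40 was lower in hypoxia in 4 of 4 and SNORD17 in 3 of 4, whereas SNORA70 and SNORD22, which led the classes in normoxic HCT116, were lower in hypoxia there without overlap. SNORD46 had 3, 1, 1 and 3 counts in normoxic PC3 and 0 in the other 10 libraries, which is at or under the floor in each library, so that no change was detectable at this depth.

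Members were also set beside their hosts, with the same limit on which members were tested. In PC3, 39 tested members with a tested host had a median log2 fold change of -0.36 and their 32 hosts one of -0.02, with 0 hosts higher and 5 lower. In HCT116 the values were -0.51 for 36 members and -0.11 for 23 hosts, with 5 hosts higher and 4 lower. Among all genes tested, 6.03% were higher and 5.29% lower in PC3, and 14.6% and 11.3% in HCT116. A member lay below its host in 30 of 39 pairs in PC3 and in 24 of 36 in HCT116. Members of 1 host share that host, so these pairs are not independent.

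Several noncoding hosts fell. Of 17 tested genes in a list of noncoding snoRNA hosts, 4 fell and 1 rose in PC3 and 6 fell and 0 rose in HCT116, against 5.29% lower and 6.03% higher among all genes in PC3 and 11.3% and 14.6% in HCT116. SNHG1, SNHG12 and SNHG15 fell in both lines, SNHG12 by 0.57 on the log2 scale in PC3 (SE 0.14, adjusted p = 0.0307) and by 0.94 in HCT116 (SE 0.10, adjusted p = 0.000108). TAF1D also fell in both, by 0.42 (SE 0.10, adjusted p = 0.0246) and 0.38 (SE 0.06, adjusted p = 0.00123). Its members SNORA18 (-0.53 and -0.25), SNORA40, SNORA8 (-0.48 and -0.17) and SNORA32 (-0.33 and -0.71) did not pass. Nor did SNORA25 in HCT116 (-0.44). Without overlap of the groups, SNORA18 and SNORA8 were lower in PC3 and SNORA32 in HCT116. In contrast, METTL12 (0.47), RPSA (0.39), RPS2 (0.33), RPL10 (0.26) and RPLP2 (0.23) rose in HCT116, and none of their 7 tested members passed. SNORA52 was at -0.95, SNORA62 at -0.66, SNORA64 at -0.57, SNORA57 at -0.54, SNORA70 at -0.39, SNORA6 at -0.12 and SNORA10 at 0.09.

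**Figure D5:**
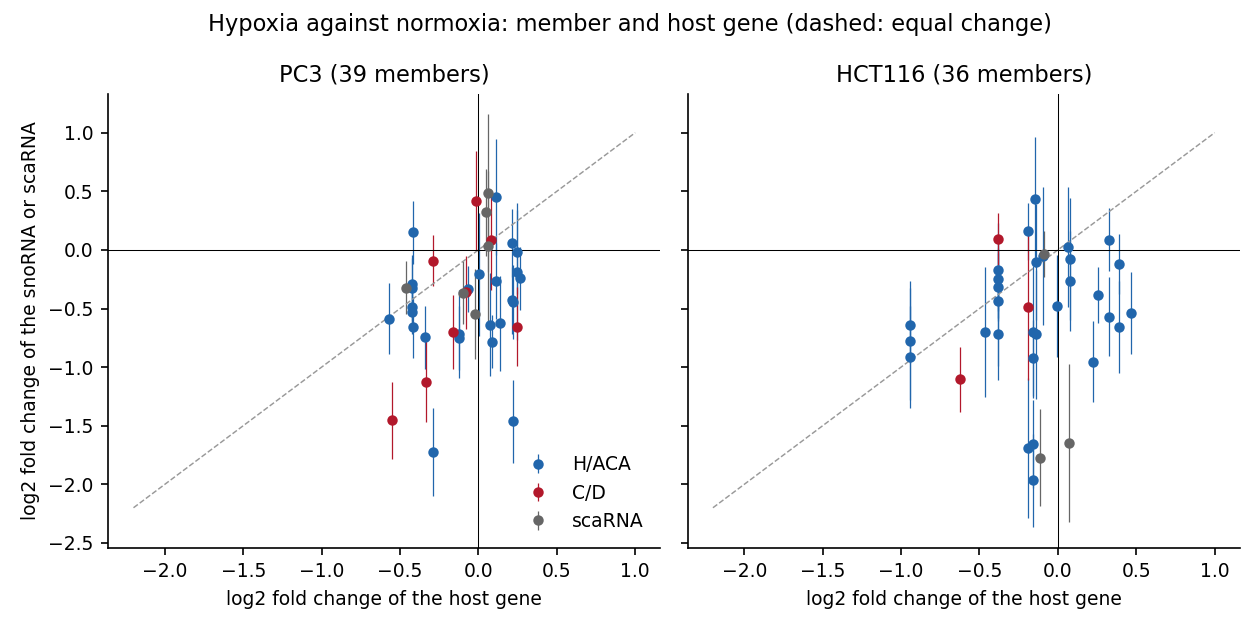
Log2 fold change in hypoxia against normoxia of each member (y axis, bar for its standard error) against that of its host gene (x axis), for 39 members in PC3 and 36 in HCT116. Most points lie below the dashed line of equal change (30 of 39 in PC3 and 24 of 36 in HCT116), and points in a column share a host.

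Over 5 lists of genes for the proteins of these particles and their handling, 3 of 42 tested genes (7.14%) passed in PC3 and 10 of 42 (23.8%) in HCT116, where 11.3% and 25.9% of all genes passed in either direction. Of the 4 H/ACA core genes, 0 passed in PC3 and DKC1 fell in HCT116 (by 0.34, SE 0.06, adjusted p = 0.00367), with GAR1 at -0.33 and -0.20 (adjusted p = 0.0683 and 0.0851) and NHP2 and NOP10 between -0.05 and 0.12. Of the 4 C/D core genes, NOP58 fell in both lines (by 0.44 in PC3, SE 0.12, adjusted p = 0.0449, and by 0.26 in HCT116, SE 0.08, adjusted p = 0.0343) and FBL rose in HCT116 (0.28, SE 0.06, adjusted p = 0.00757). Of 12 assembly factors, NUFIP1 fell in PC3, while in HCT116 ZNHIT6, RUVBL1 and RPAP3 fell and PIH1D1 rose. Of 12 genes for maturation and turnover, such as the poly(A) nuclease PARN and the exosome subunit EXOSC10, 0 passed in PC3 and 1, EXOSC10, fell in HCT116 (by 0.22, SE 0.06, adjusted p = 0.0265). Of 10 tested Cajal body genes, USPL1 fell in PC3 and DDX20 and NARG2 fell in HCT116, while the marker protein gene COIL stood at -0.22 and -0.13 (adjusted p = 0.0830 and 0.157). The lists' medians lay between -0.22 and -0.04, against 0.00 for all genes.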

How the data were processed

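Polyadenylated RNA of 14 libraries was analysed. Per the labels and the study's methods, the authors removed reads of the spike-in standard, aligned the rest to GRCh37 with HISAT2 2.05 and deposited counts per RefSeq gene from HTSeq 0.5.4p3 in its intersection-strict mode. Spike-in reads and the authors' comparisons were not used here. Members and gene lists were chosen with earlier results of these data known. Named members were those past the threshold (at most 10 per comparison and direction), the 5 most abundant per class and SNORD46. The counts were fitted with edgeR 4.0.16 (TMM, filterByExpr, quasi-likelihood test, two-sided, Benjamini-Hochberg, threshold 0.05, limma 3.58.1, R 4.3.3), each line apart for hypoxia, all 14 libraries for the interaction and 7 for the lines. CPM used TMM factors over 14 libraries. SE was the log2 fold change over the root of F. DESeq2 1.42.0, other scalings, filters, a replicate block and left-out libraries were alternatives. The fits were tested on simulated data. Replicates were biological, but no shared culture or day was stated. In PC3 deviations of same-numbered libraries correlated at r = 0.675, 0.267, 0.140 and 0.282 over 14309 genes, so the numbers were taken to pair them. Lengths and sequences came from GENCODE v44lift37 and GRCh37, hosts of unplaced members from RefSeq GRCh38.p14 neighbours, strand not known. Some genes and loci are not reported here.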

Additional observations from a re-analysis of the deposited data

Results flagged for a closer look

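In 4 of 74 groups of 4 PC3 libraries, 1 library lay farther from the rest than Dixon's 95% limit allows, where chance alone gives about 3.7. SCARNA9L was at 0.0582 CPM in PC3 normoxia 3 and at 0.157 to 0.176 CPM in the other normoxic libraries. SNORA18 was at 0.669 CPM in PC3 normoxia 3 and at 0.521 to 0.545 CPM in the others. SNORD76 was at 0.126 CPM in PC3 normoxia 1 and at 0.230 to 0.242 CPM in the others. The summed level of the H/ACA snoRNAs was 7.34 CPM in PC3 hypoxia 1 and 8.88 to 9.13 CPM in the other hypoxic libraries. No cause was tested for these. HCT116 groups, of 3 libraries, were not examined in this way.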

How the results depend on the processing

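No member rose in hypoxia under any alternative. The 3 members lower in PC3 became 5 with total count scaling and 0 to 4 with single libraries left out, and the 4 lower in HCT116 became 7 and 4 to 5. DESeq2 called 1 member lower in the interaction. Between the lines, the 9 higher members became 3 with at least 10 counts required in every library and 8 to 10 with libraries left out, and the 19 lower ones became 5 with that requirement, 31 in DESeq2, 38 without a filter and 14 to 20 with libraries left out. With the replicate number as a block, the counts were 4 lower in PC3 and 8 higher and 16 lower between the lines, and SNORA3 had a log2 difference of 1.19 (edgeR adjusted p = 0.0734). In HCT116 same-numbered libraries deviated together at r = 0.0908, 0.138 and 0.0429 and so shared only a number, and no pairing of libraries across the lines is stated.

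Uncalled members changed sign in PC3 hypoxia, SCARNA17 (-0.00) with median-of-ratios scaling (0.00288) and over -0.44 to 0.51 with libraries left out, SNORD16 with total count scaling (-0.031) and over -0.16 to 0.36, and SNORD17 over -0.22 to 0.064. In HCT116 this held for SCARNA12 (-0.17 to 0.080), SNORA6 (-0.26 to 0.0050) and SNORA67 (-0.082 to 0.30). The cause was not tested.

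Numbers of members detected follow the floor by construction. With any count in every library, H/ACA snoRNAs numbered 55 and 44 in normoxic and hypoxic PC3 and 60 and 57 in HCT116, C/D snoRNAs 32, 27, 9 and 6, and scaRNAs 10, 9, 9 and 8. With at least 10 counts these were 23, 13, 25 and 20 H/ACA snoRNAs, 8 and 4 C/D snoRNAs in PC3 and 2 in hypoxic HCT116, and 3, 5 and 3 scaRNAs in normoxic PC3 and normoxic and hypoxic HCT116. Thinned libraries gave 30.4, 30.3 and 23.1 H/ACA snoRNAs in normoxic PC3 and both HCT116 groups, and 2.55 C/D snoRNAs and 3.37 scaRNAs in hypoxic HCT116. Single libraries left out gave 4 to 7 scaRNAs in hypoxic PC3, the 7 without hypoxia 4. Without its most abundant member, the H/ACA sum was 8.84 and 6.20 CPM in PC3 and 8.42 CPM in normoxic HCT116, the C/D sum 3.34, 2.22, 0.951 and 0.568 CPM, and the scaRNA sum 1.24, 1.12, 0.952 and 0.622 CPM. Members together took 1003 to 2754 counts per library, so that single members rest on few counts.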

Other observations

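Other short RNAs were scarce in these libraries too. Of 1294 rows of microRNA precursors, 1202 were at 0 in all 14 libraries. The precursors held 73 to 221 counts per library in PC3 and 32 to 68 in HCT116, so that they too were lower in HCT116 without overlap although its libraries were deeper. Of 27 other short or nonpolyadenylated RNAs looked for, 14 had a row, and RMRP, the RNA of a ribosomal RNA processing particle, was at 0.585 CPM in normoxic PC3 and 1.03 CPM in normoxic HCT116. TERC, the telomerase RNA and an H/ACA RNA by structure, was at 0.153 and 0.315 CPM. Of the members of that list, 0 of 3 tested in PC3 and 0 of 4 tested in HCT116 passed the edgeR test for hypoxia. Summed over the list, PC3 hypoxia 3 stood apart at 7.64 CPM, against 1.13 to 1.32 CPM in the other hypoxic PC3 libraries. PC3 normoxia 4 was at 3.30 CPM, against 0.866 to 1.51 CPM in the other normoxic ones. The cause of this was not tested. The replication-dependent histone genes, whose messages mostly lack a poly(A) tail, held 15444 to 26940 counts per library in PC3 and 5048 to 5893 in HCT116. In hypoxia 3 of 37 tested histone genes (8.11%) rose in PC3 and 1 of 33 (3.03%) in HCT116, where 6.03% and 14.6% of all genes tested rose, and 0 fell, where 5.29% and 11.3% of all genes did.

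C6orf48, a snoRNA host, had 52 to 112 counts in normoxic and 73 to 1286 counts in hypoxic PC3 libraries, so that the groups overlapped in counts. It was at a mean of 0.716 and 7.69 CPM (n = 4), with a log2 fold change of 3.42 (SE 0.66, edgeR adjusted p = 0.0128), and at 2.36 and 2.17 CPM in HCT116 (log2 fold change -0.10, adjusted p = 0.591).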
